A study of Homo sapiens with 42 samples.

Results

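The miR-23a and miR-23b clusters each encode a miR-23, a miR-27 and a miR-24 on 1 short stretch of genome. Their guide strands are miR-23a-3p, miR-23b-3p, miR-27a-3p, miR-27b-3p and miR-24-3p, and these 5 entries were taken by name from the 2657 mature miRNA entries of the count table. A microRNA guide strand is loaded into an Argonaute (AGO) protein and pairs with target transcripts mainly through its seed, bases 2 to 8 from the 5′ end. The hairpins of a cluster can be cut from a common primary transcript, after which each mature strand is loaded and lost on its own. The family is known from blood vessel growth, muscle and fat differentiation and tumour cells, with SPRY2 and PPARG among the targets described for miR-27 in various systems.

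Small RNA of 3 human lines, grown to a subconfluent or a confluent state and split into cytoplasm and nucleus, was sequenced to ask how the miRNA profile depends on cell density. The lines were HEK293 (embryonic kidney), A375 (melanoma) and SHSY5Y (neuroblastoma), all labelled wild type and untreated, with 3 libraries in each of 12 groups. A further 6 libraries, 3 subconfluent and 3 confluent, came from HEK293 RNA that was bound to AGO1-4 and pulled down with the T6B peptide (AGO IP). Its input is a total lysate in the labels and a cytoplasmic fraction in the study's methods. The IP libraries are labelled biological replicates and the fraction libraries are only numbered, so p-values measure the spread between these libraries, which may be technical. Each line is 1 culture line sequenced in 1 pool, so line and pool cannot be told apart. SHSY5Y was grown in RPMI medium and the other lines in DMEM, so medium cannot be told apart from line in comparisons with SHSY5Y. The groups of a line carry different 3′ adapters, and the 2 IP groups were separate pools, so neither can be told apart from density or fraction.

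Totals ran from 9817 to 53775 counts in the 34 fraction libraries used and from 910753 to 1124959 in the 6 of the IP, so a member with few counts is measured far more closely in the IP. The third confluent nuclear libraries of HEK293 (39 counts) and SHSY5Y (31 counts) were near empty and were left out, which leaves 2 libraries in those groups. Of the melanoma markers chosen for A375, miR-221-3p, miR-222-3p and miR-146a-5p carried the list, which summed to 54500 to 89800 CPM (counts per 1000000 counts) in A375 and 2100 to 13100 in the other fractions. The melanocyte marker miR-211-5p had a median of 0 in A375. The neural list overlapped between lines, at 5140 to 26700 CPM in SHSY5Y and 3740 to 14700 in the other fractions. In the HEK293 AGO IP, which was scaled separately, it summed to 17000 to 22400 CPM. Of this list miR-124-3p had a median of 1050 CPM in SHSY5Y, 69.8 in the HEK293 fractions and 0 in A375. miR-7-5p differed less, at 5250, 3640 and 3940 CPM. Markers of blood, vessel, liver and muscle cells summed to 225 to 3310 CPM in the fractions. In all 3 lines the study's supplementary table of group means holds the deposited confluent nuclear libraries under subconfluent cytoplasm, and the deposited subconfluent cytoplasmic libraries under confluent nucleus. The deposited names were used here, which naming is right was not determined, and values under the other naming are given where a call depends on it.

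The 5 mature sequences are shown because 2 pairs of them are nearly the same, which bears on how reads were assigned. Seeds are in capitals, and the sequences are those of RefSeq on GRCh38, in which all 5 members were found.
miR-23a-3p: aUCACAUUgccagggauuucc
miR-23b-3p: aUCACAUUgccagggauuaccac
miR-27a-3p: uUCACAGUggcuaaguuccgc
miR-27b-3p: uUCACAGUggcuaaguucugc
miR-24-3p: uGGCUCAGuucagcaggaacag

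Counted from the 5′ end, miR-23a-3p differs from miR-23b-3p by U19A over 21 bases, and miR-23b-3p has 2 more bases at its 3′ end. miR-27a-3p differs from miR-27b-3p by C19U alone. The miR-23 and miR-27 seeds differ from each other by U7G, whereas the miR-24 seed is unrelated and no other human mature miRNA in the table carries it. The miR-23 seed is shared with miR-23c and the miR-27 seed with miR-9985. How reads that fit both copies of a pair were assigned is not stated in the sources used here, so the values of near-identical entries may share reads. Splits by copy are therefore uncertain, and the pair sums were tested as an alternative.

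The miR-23a cluster covers 373 bases of chromosome 19 (chr19:13836287-13836659, minus strand, GRCh38), in the order MIR23A, MIR27A and MIR24-2, and lies in an exon of the long noncoding RNA MIR23AHG. The miR-23b cluster covers 881 bases of chromosome 9 (chr9:95085208-95086088, plus strand), in the order MIR23B, MIR27B and MIR24-1, inside the protein-coding gene AOPEP. An annotated AOPEP exon (chr9:95085930-95086119) contains MIR24-1, while MIR23B and MIR27B overlap none of its annotated exons. The hairpin MIR3074 overlaps MIR24-1 on the other strand. Both clusters give the same mature miR-24-3p, which is 1 entry whose counts cannot be divided between chromosomes.

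All 5 guide strands were low in HEK293 and high in A375 and SHSY5Y, and the rise was steepest for the strands of the miR-23a cluster. Together they took 1.04% to 1.68% of the counts in the HEK293 fraction groups, 8.73% to 11.8% in A375 and 3.80% to 10.9% in SHSY5Y. From the lowest to the highest of the 12 group means, miR-27a-3p spanned 108-fold, miR-23a-3p 60.1-fold, miR-24-3p 19.1-fold, miR-23b-3p 11.6-fold and miR-27b-3p 6.79-fold. All CPM are scaled by TMM, a trimmed mean of ratios that sets the libraries of a fit to a common base, and every member passed the filter on low counts in every test.

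miR-23a-3p lay at 293 to 663 CPM in HEK293 cytoplasm (median 548, n = 6), 4466 to 9214 in SHSY5Y cytoplasm (median 5596, n = 6) and 18380 to 31120 in A375 cytoplasm (median 22270, n = 6). In the nucleus it lay at 587 to 1540 CPM in HEK293 (median 828, n = 5), 14000 to 18540 in SHSY5Y (median 17640, n = 5) and 13580 to 34950 in A375 (median 25270, n = 6). No HEK293 library reached any library of the other lines, and A375 and SHSY5Y overlapped in the nucleus only. miR-27a-3p, its neighbour on chromosome 19, lay at 655 to 2280 CPM in HEK293 cytoplasm (median 748), 5196 to 26730 in SHSY5Y (median 14020) and 14350 to 56480 in A375 (median 30380). Its nuclear levels were 385 to 3687 CPM in HEK293 (median 1426), 12150 to 59050 in SHSY5Y (median 38080) and 11870 to 29340 in A375 (median 22120). A375 and SHSY5Y overlapped in both fractions.

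The strands of the miR-23b cluster were less uneven between lines. miR-23b-3p was the most abundant member in every HEK293 group, at 3708 to 5011 CPM in the cytoplasm (median 4378), against 14630 to 19750 in SHSY5Y (median 16680) and 27520 to 46640 in A375 (median 36280). miR-27b-3p was the flattest, at 1395 to 3372 CPM in HEK293 cytoplasm (median 2154), 2360 to 8008 in SHSY5Y (median 4243) and 2392 to 8751 in A375 (median 5135), and the 3 ranges overlapped. Its nuclear levels were 1847 to 2516 CPM in HEK293, 2132 to 5082 in A375 and 4083 to 16090 in SHSY5Y. miR-24-3p, which both clusters can supply, lay between the others, at 1326 to 1995 CPM in HEK293 cytoplasm (median 1749), 5410 to 21370 in SHSY5Y (median 9039) and 12680 to 21360 in A375 (median 14390). In the nucleus miR-24-3p was at 1002 to 2524 CPM in HEK293, 9994 to 17680 in A375 and 10050 to 31820 in SHSY5Y.

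**Figure D1:**
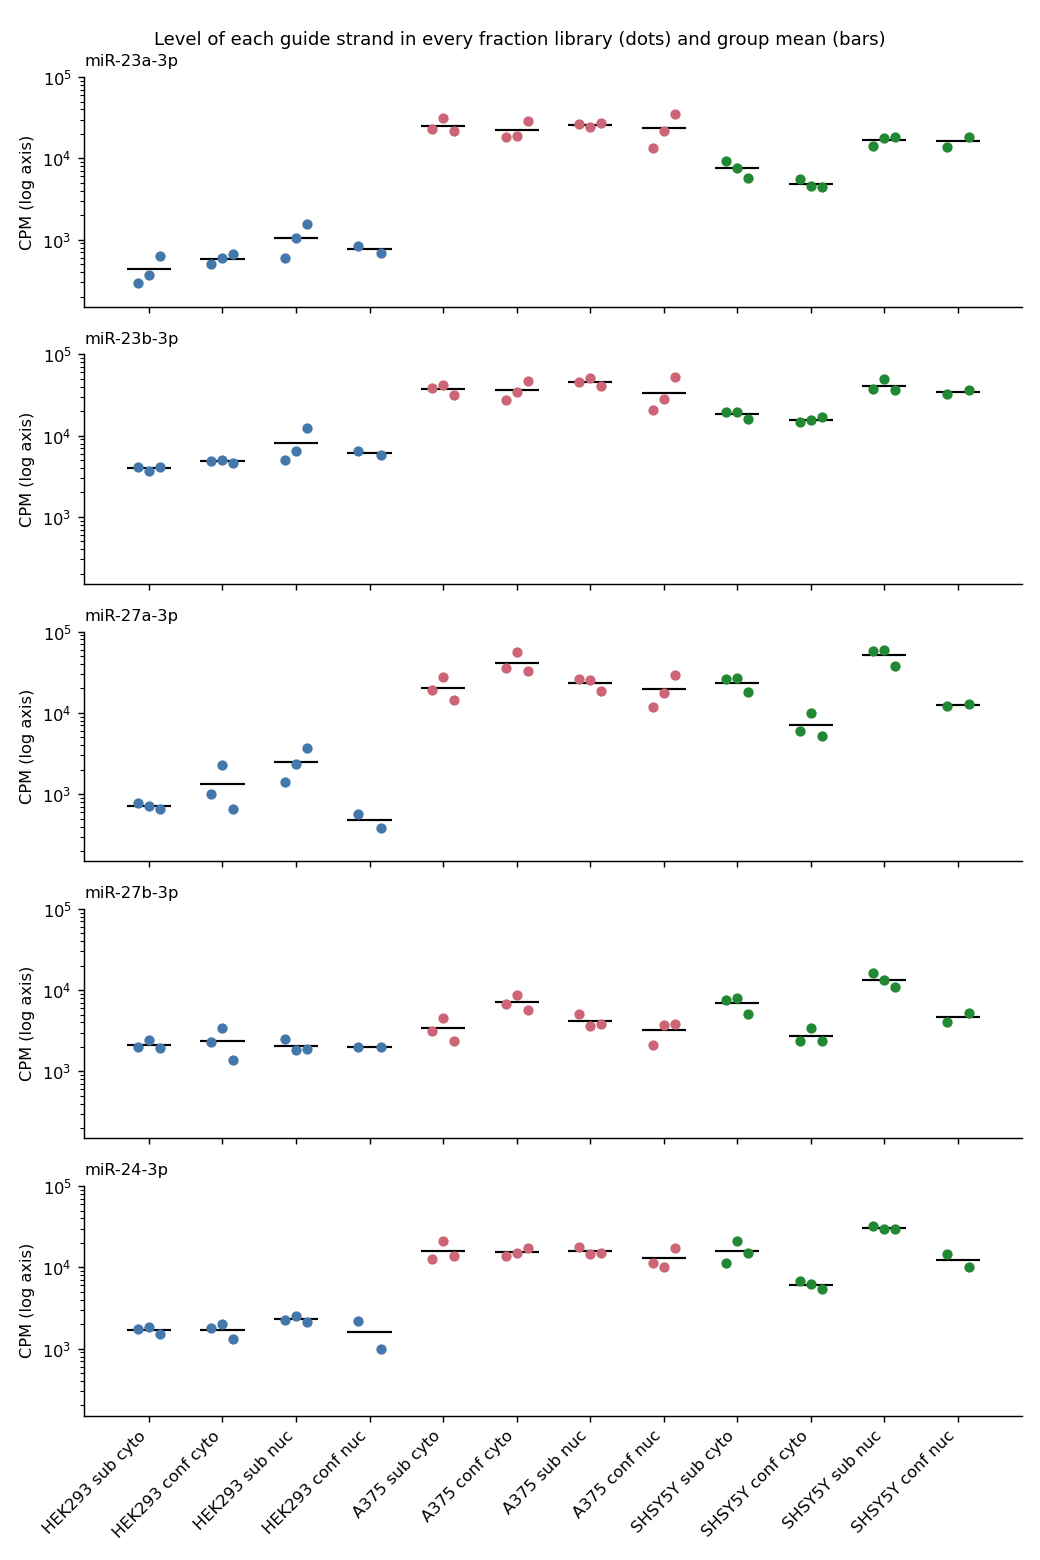
Level of each guide strand (CPM, log axis) in the 34 fraction libraries, 1 dot per library and a bar for the group mean, with HEK293 in blue, A375 in red and SHSY5Y in green. The HEK293 dots of miR-23a-3p sit between 293 and 1540 CPM, below all dots of the other lines, whereas the miR-27b-3p dots of the 3 lines overlap.

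In 1 fit over the 34 libraries (edgeR's quasi-likelihood test with Benjamini-Hochberg adjustment over 478 entries), all 5 members were higher in A375 than in HEK293, in the cytoplasm and in the nucleus. An entry is called where its adjusted p is below 0.05. The calls were 64.6% of all entries in the cytoplasm, with 27.8% higher, and 54.2% in the nucleus, with 30.1% higher. In the cytoplasm the log2 difference was 5.52 ± 0.25 (SE) for miR-23a-3p (adjusted p = 4.034e-23), 4.90 ± 0.28 for miR-27a-3p (adjusted p = 1.218e-19), 3.19 ± 0.21 for miR-24-3p, 3.06 ± 0.21 for miR-23b-3p and 1.12 ± 0.22 for miR-27b-3p (adjusted p = 1.983e-05). In the nucleus the order was the same, with 4.74 ± 0.29, 4.26 ± 0.33, 2.89 ± 0.24, 2.49 ± 0.23 and 0.85 ± 0.25. The median log2 difference of the 5 members was 3.19 in the cytoplasm and 2.89 in the nucleus, against -0.27 and 0.19 over all entries tested.

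All 5 members were also higher in SHSY5Y than in HEK293 in both fractions, where 72.2% of entries were called in the cytoplasm (33.3% higher) and 49% in the nucleus (30.5% higher). Here miR-27a-3p led, at 3.72 ± 0.27 in the cytoplasm and 4.51 ± 0.34 in the nucleus on the log2 scale (adjusted p = 3.824e-16 and 2.332e-15). miR-23a-3p followed at 3.55 ± 0.24 and 4.16 ± 0.28, miR-24-3p at 2.53 ± 0.20 and 3.32 ± 0.24, miR-23b-3p at 1.95 ± 0.20 and 2.42 ± 0.23, and miR-27b-3p at 0.94 ± 0.21 and 1.97 ± 0.26. The calls of A375 and of SHSY5Y against HEK293 share the HEK293 libraries.

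A375 exceeded SHSY5Y in the cytoplasm for 4 of the 5 members, where 56.7% of entries were called and 26.4% were higher. The log2 difference was 1.97 ± 0.21 for miR-23a-3p, 1.18 ± 0.24 for miR-27a-3p, 1.11 ± 0.19 for miR-23b-3p and 0.66 ± 0.19 for miR-24-3p (adjusted p from 7.121e-11 to 0.002642). It was 0.18 ± 0.21 for miR-27b-3p, with a 95% interval of -0.24 to 0.60 (adjusted p = 0.4802). The call of miR-24-3p ended under DESeq2, another count model with its own size factors (adjusted p = 0.05374), over the entries detected in the IP (adjusted p = 0.05854) and with no filter on low counts (0.49, adjusted p = 0.195). In the nucleus 2 members passed, where 37% of entries did (16.1% higher and 20.9% lower), miR-23a-3p with 0.58 ± 0.22 (adjusted p = 0.03245) and miR-27b-3p, which was lower in A375, with -1.12 ± 0.23 (adjusted p = 0.0001062). Libraries of the same group and number share a 3′ adapter across the lines, and with that pairing as a block the call of miR-23a-3p ended (0.37, adjusted p = 0.07874), while miR-27a-3p and miR-24-3p were called lower in A375 (-0.46 and -0.57, adjusted p = 0.02613 and 0.002895). Leaving out any of 5 single libraries, of which A375 confluent nucleus replicate 3 moved it most, to 0.37, also ended the call of miR-23a-3p (adjusted p = 0.05053 to 0.1645). As pair sums neither miR-23 nor miR-27 passed (0.25 and -0.41, adjusted p = 0.3505 and 0.1741).

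Since both copies of a pair are read in the same library, their shares do not depend on scaling. miR-23b-3p made up 89.2% ± 2.04 of the miR-23a-3p and miR-23b-3p counts in HEK293 (SD, n = 11 fraction libraries, 86.2% to 93.3%), 72.0% ± 4.07 in SHSY5Y (n = 11, 66.4% to 79.4%) and 61.2% ± 3.11 in A375 (n = 12, 57.1% to 68.1%). The contrast was wider for miR-27b-3p, whose share of the miR-27 counts was 65.8% ± 15.1 in HEK293 (33.6% to 83.9%), 24.5% ± 3.77 in SHSY5Y (18.6% to 31.2%) and 14.7% ± 1.78 in A375 (11.5% to 17.5%). HEK293 overlapped neither of the other lines for either pair, and A375 and SHSY5Y overlapped for miR-23 only. Each of the 6 differences between lines had p = 2e-05 in a two-sided permutation test with 100000 resamples, the smallest it can give, or 4.7e-05 adjusted over the 14 share comparisons made. The share thus went from the chromosome 9 copy towards the chromosome 19 copy in the order HEK293, SHSY5Y, A375 for both pairs.

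**Figure D2:**
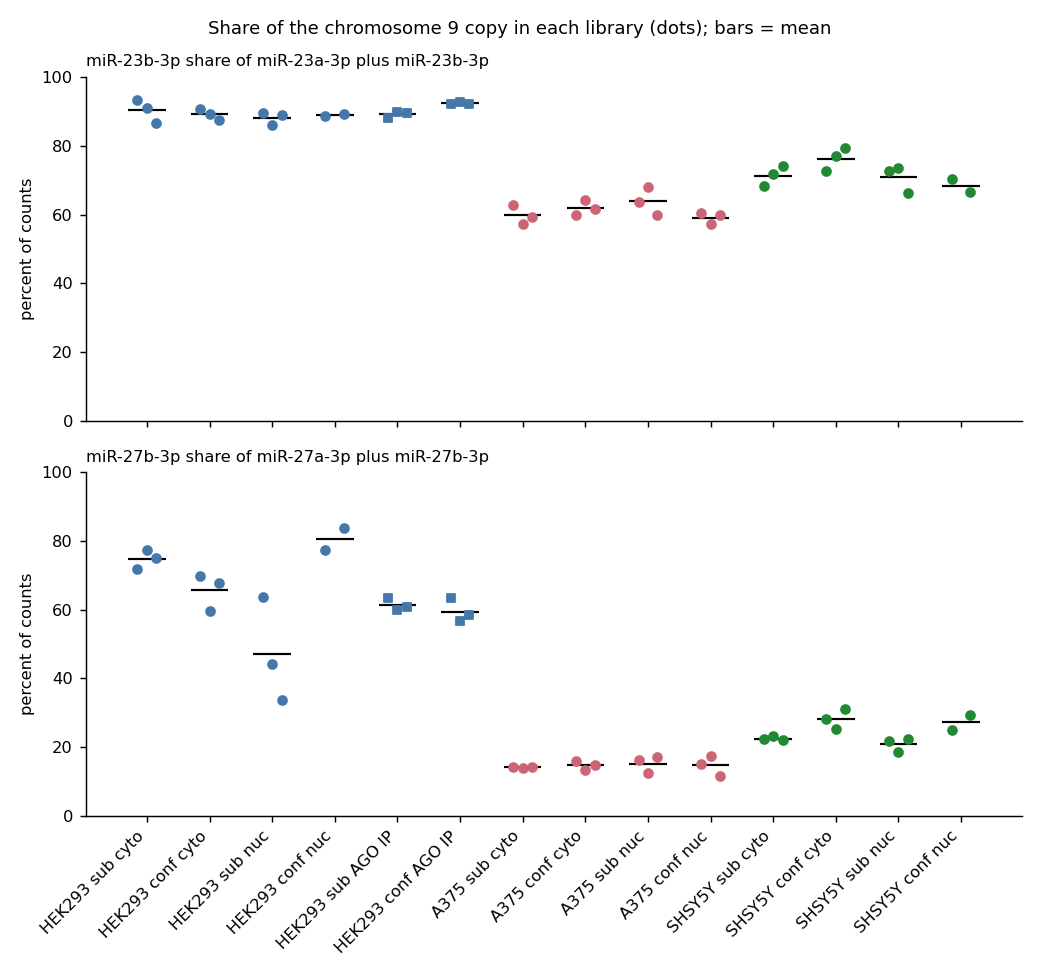
Share of the chromosome 9 copy in the counts of each near-identical pair (percent), 1 dot per fraction library, squares for AGO IP libraries and a bar for the group mean. The miR-27b-3p share lies at 33.6% to 83.9% in the HEK293 fractions and at 11.5% to 31.2% in A375 and SHSY5Y.

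With both densities pooled, no share passed the test between nucleus and cytoplasm in any line. The largest such difference was -9.64 percentage points (nucleus minus cytoplasm) for miR-27b-3p in HEK293, with a share of 60.6% ± 21.4 in the nucleus and 70.2% ± 6.23 in the cytoplasm (exact two-sided permutation test, n = 5 and 6, p = 0.33, adjusted 0.49). That pooled value joins opposite differences at the 2 densities, which were not tested apart. The miR-27b-3p share of subconfluent HEK293 was 33.6% to 63.8% in the nucleus and 71.8% to 77.4% in the cytoplasm, and that of confluent HEK293 was 77.5% to 83.9% in the nucleus (n = 2) and 59.7% to 69.8% in the cytoplasm, without overlap at either density. In the IP, miR-27b-3p took 60.4% ± 2.7 of the miR-27 counts against 70.2% ± 6.23 in HEK293 cytoplasm (exact two-sided permutation test, n = 6 and 6, p = 0.011, adjusted 0.022), with overlapping ranges of 56.6% to 63.5% and 59.7% to 77.4%. The miR-23b-3p share was 90.8% ± 1.87 in the IP and 89.8% ± 2.46 in the cytoplasm (exact p = 0.42, adjusted 0.49).

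The other strands of the hairpins bear on which cluster supplied miR-24-3p, since the 5p strands of MIR24-1 (chromosome 9) and MIR24-2 (chromosome 19) differ in sequence. In the IP miR-24-1-5p had 384 counts and miR-24-2-5p had 5, so that 98.7% came from the chromosome 9 hairpin (95% exact binomial interval 97.0 to 99.6, counting error only). The fractions held too few of these strands for a firm share, with 4 and 1 counts in HEK293, 25 and 7 in SHSY5Y (78.1%, interval 60.0 to 90.7) and 5 and 8 in A375 (38.5%, interval 13.9 to 68.4). The A375 and SHSY5Y intervals both lie below the IP value, while the HEK293 fraction interval of 28.4 to 99.5 includes it. The IP is of HEK293 only, so line, preparation and pool cannot be told apart in this comparison. All these intervals hold counting error only. The strand kept from each hairpin may differ, so these are shares of 5p strands and not of miR-24-3p.

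The 5p strands of the miR-23 and miR-27 hairpins were minor partners of their guides. In counts summed over libraries, each took a smaller share of both strands in the IP than in the HEK293 fractions. The intervals given for these summed shares hold counting error only. miR-24-1-5p was compared by level and not by share, at 2.75 ± 0.76 on the log2 scale for the IP against cytoplasm (edgeR, adjusted p = 0.001923). It had 31 to 90 counts in the IP libraries and 4 in all HEK293 fractions. It passed the filter only through the IP, so its higher level there was set by the filter. miR-27a-5p made up 4.37% of both strands in A375 (286 counts, interval 3.89 to 4.90), 1.44% in SHSY5Y, 1.25% in HEK293 fractions (5 counts, interval 0.407 to 2.89) and 0.00637% in the IP, where 1 count stood against 15688 of miR-27a-3p. miR-23a-5p was 11.4% of both strands in the HEK293 fractions (26 counts, interval 7.55 to 16.2) and 0.14% in the IP. Single HEK293 fraction libraries ran from 0% to 30.8%. miR-27b-5p was 9.28% in A375, 7.55% in SHSY5Y, 1.53% in the HEK293 fractions and 0.248% in the IP. Its share in single libraries ran from 2.63% to 31.1% in A375 and from 2.44% to 25.7% in SHSY5Y. In A375 and SHSY5Y miR-27a-5p had a lower level in nuclei than in cytoplasm, by log2 differences of -1.31 ± 0.35 and -2.74 ± 0.54 (edgeR, adjusted p = 0.009491 and 3.762e-05). For miR-27a-3p the same difference was -0.39 ± 0.23 in A375 (adjusted p = 0.2364) and 1.00 ± 0.19 in SHSY5Y, and the strands were not compared by a test. In SHSY5Y miR-27a-5p passed the filter only through subconfluent cytoplasm (15 to 33 counts). It had at most 5 counts in any SHSY5Y nuclear library, so its lower nuclear level there was set by the filter. In A375 miR-27a-5p had 13 to 21 counts in subconfluent and 25 to 98 in confluent cytoplasmic libraries. The A375 nuclear libraries had 6 to 7 counts of it when subconfluent and 3 to 15 when confluent. It thus met the filter through the cytoplasm there too, and its lower nuclear level in A375 was also set by the filter. Of 9 related entries fixed as a list (6 5p strands, miR-23c and both strands of MIR3074), 3 passed the filter between lines, miR-23a-5p, miR-27a-5p and miR-27b-5p. They passed through A375 and SHSY5Y, with at most 10, 1 and 3 counts in any HEK293 fraction library, so their higher level outside HEK293 was set by the filter. miR-23c had 2 to 5 counts in the fractions of any line and 41 in the IP.

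Cell density was the variable of the study, and SHSY5Y was the line in which the family moved most. In SHSY5Y cytoplasm miR-27a-3p, miR-27b-3p and miR-24-3p were lower in confluent cells, and so they were in the nucleus, while neither miR-23 passed the test in either fraction. The 3 calls stand beside 58.9% of 348 entries called in the cytoplasm (25.3% lower) and 39.9% in the nucleus (22.1% lower). The median of the 5 members was -1.12 and -1.09, against -0.02 and 0.04 over all entries.

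miR-27a-3p was at 25970, 26730 and 18110 CPM in the subconfluent cytoplasmic libraries of SHSY5Y and at 5979, 9925 and 5196 in the confluent ones. In the nucleus it was at 57430, 59050 and 38080 CPM when subconfluent and at 12150 and 12850 when confluent. The groups did not overlap in either fraction, and the log2 difference was -1.52 ± 0.25 in the cytoplasm (edgeR, adjusted p = 4.855e-06) and -1.84 ± 0.29 in the nucleus (adjusted p = 7.895e-06). miR-27b-3p went from 7539, 8008 and 5109 CPM to 2360, 3378 and 2362 in the cytoplasm, and from 16090, 13470 and 10950 to 4083 and 5296 in the nucleus. Its groups did not overlap either, with log2 differences of -1.12 ± 0.27 and -1.34 ± 0.31 (adjusted p = 0.0006611 and 0.0008521).

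miR-24-3p went from 11370, 21370 and 14870 CPM to 6703, 6188 and 5410 in SHSY5Y cytoplasm and from 31820, 29550 and 29410 to 14390 and 10050 in the nucleus, with no overlap in either. The log2 differences were -1.15 ± 0.24 and -1.09 ± 0.27 (adjusted p = 0.0001086 and 0.001494), and the nuclear call ended without confluent nucleus replicate 2 (-0.75, adjusted p = 0.06879). miR-23b-3p, by contrast, was at 19750, 19490 and 16180 CPM in subconfluent and 14630, 15370 and 17180 in confluent cytoplasm, and its log2 difference was -0.00 ± 0.21 with a 95% interval of -0.42 to 0.41. miR-23a-3p gave -0.42 ± 0.24 in the cytoplasm and 0.16 ± 0.26 in the nucleus (adjusted p = 0.1325 and 0.6427), and the cytoplasmic difference was called without subconfluent cytoplasm replicate 3 (-0.70, adjusted p = 0.009366) and with library totals (-0.64, adjusted p = 0.02208). Library totals moved the median of all entries in the nucleus from 0.04 to 0.55, and there miR-23a-3p was called higher in confluent nuclei (0.66, adjusted p = 0.03633) and miR-24-3p did not pass (-0.59, adjusted p = 0.05143).

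Counts of entries that the AGO IP did not detect moved with the same groups, from 33.4% of counts (29.0% to 39.3%) to 64.9% (62.5% to 68.3%) in SHSY5Y cytoplasm and from 10.8% to 27.4% in the nucleus, and their part in the result was not tested. The IP was made in HEK293 only, so these entries can include miRNAs that are bound to AGO in SHSY5Y. With the fit restricted to the entries detected in the IP, miR-27a-3p was still lower in confluent cells in both fractions (-0.82 and -1.18, adjusted p = 0.004063 and 0.001051) and miR-27b-3p in the nucleus (-0.69, adjusted p = 0.03912). On that base miR-27b-3p in the cytoplasm (-0.41, adjusted p = 0.1567) and miR-24-3p in both fractions (-0.44 and -0.42, adjusted p = 0.09323 and 0.1446) no longer passed, and miR-23b-3p was higher in confluent cells (0.70 and 0.63, adjusted p = 0.002211 and 0.008449), as was miR-23a-3p in the nucleus (0.80, adjusted p = 0.007281). The miR-23 strands lay above miR-24 and miR-27 on both bases. A change of base rescales whole libraries and shifted all members by nearly the same amount. Their order could hardly change, so it is no separate evidence. Under the other naming of the columns all 5 members were lower in confluent cells in both fractions, with miR-23a-3p at -1.76 and -1.18 and miR-27a-3p at -0.84 and -1.16.

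**Figure D3:**
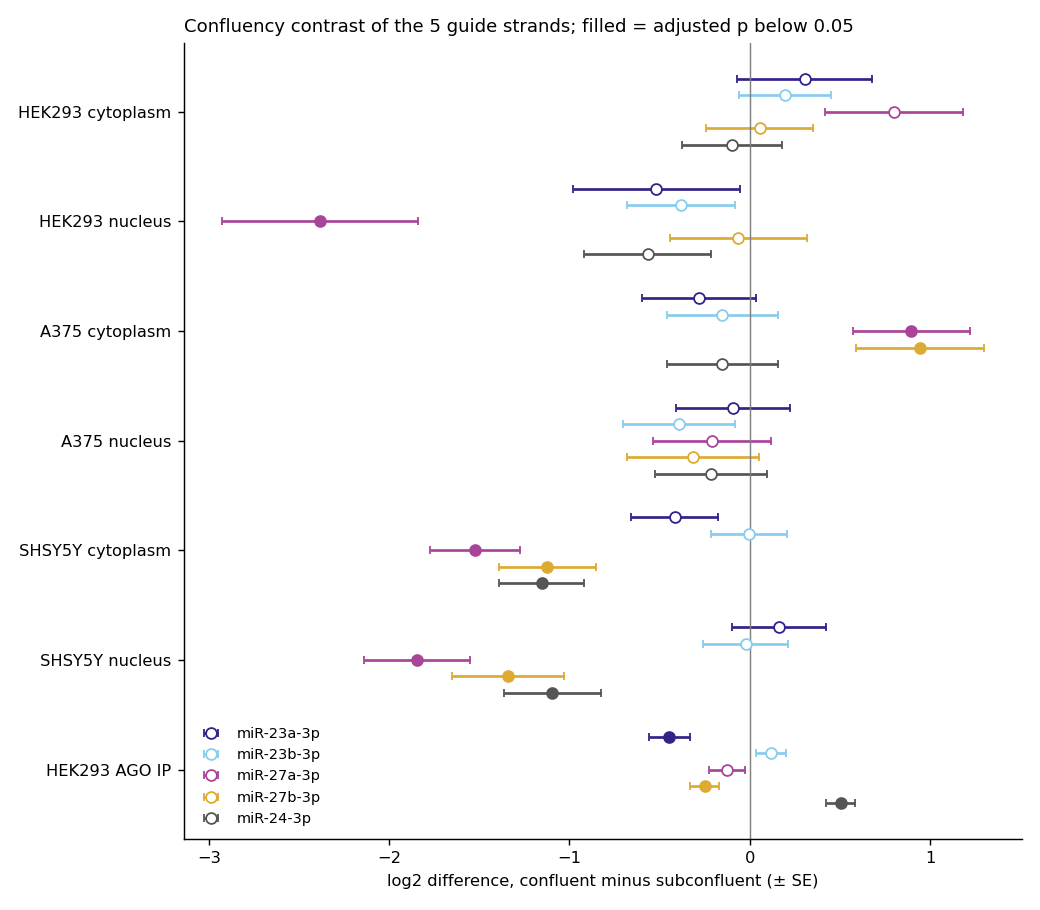
Difference between confluent and subconfluent cells for the 5 guide strands (log2, point ± SE) in each line and fraction and in the AGO IP, with filled points for an adjusted p below 0.05. In SHSY5Y both miR-27 strands and miR-24-3p lie left of 0 in both fractions, at -1.09 to -1.84, and the miR-23 strands lie at -0.42 to 0.16.

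The ratio of a miR-27 to the miR-23 next to it on the same chromosome describes this pattern within each library, free of scaling. These ratios were chosen after values had been seen and are given without a test. In SHSY5Y cytoplasm the ratio of miR-27a-3p to miR-23a-3p was 3.16 ± 0.335 in subconfluent (SD, n = 3, 2.82 to 3.49) and 1.47 ± 0.597 in confluent libraries (1.09 to 2.16), and in the nucleus 3.17 ± 1.03 (2.06 to 4.09) and 0.781 ± 0.124 (n = 2, 0.693 to 0.868). The ratio of miR-27b-3p to miR-23b-3p went from 0.369 ± 0.0487 to 0.173 ± 0.0424 in the cytoplasm and from 0.335 ± 0.0848 to 0.134 ± 0.0137 in the nucleus. Both clusters thus had less miR-27 per miR-23 in confluent SHSY5Y, with no overlap in any of the 4 comparisons under the deposited names. Under the other naming the first ratio would go from 0.781 to 1.47 in the cytoplasm and from 3.17 to 3.16 in the nucleus, and the second from 0.134 to 0.173 and from 0.335 to 0.369, which does not show this pattern.

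A375 cytoplasm went the other way. There the ratio of miR-27a-3p to miR-23a-3p was 0.801 ± 0.126 in subconfluent (0.658 to 0.896) and 2.0 ± 0.922 in confluent libraries (1.13 to 2.97), and that of miR-27b-3p to miR-23b-3p 0.0889 ± 0.0178 and 0.207 ± 0.0739. In A375 nuclei the first ratio was 0.913 ± 0.209 and 0.842 ± 0.0307 and the second 0.0915 ± 0.0201 and 0.102 ± 0.0283, with overlap in both. A375 libraries had 0.0707 to 0.256 miR-27b-3p per miR-23b-3p and HEK293 fraction libraries 0.150 to 0.673.

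**Figure D4:**
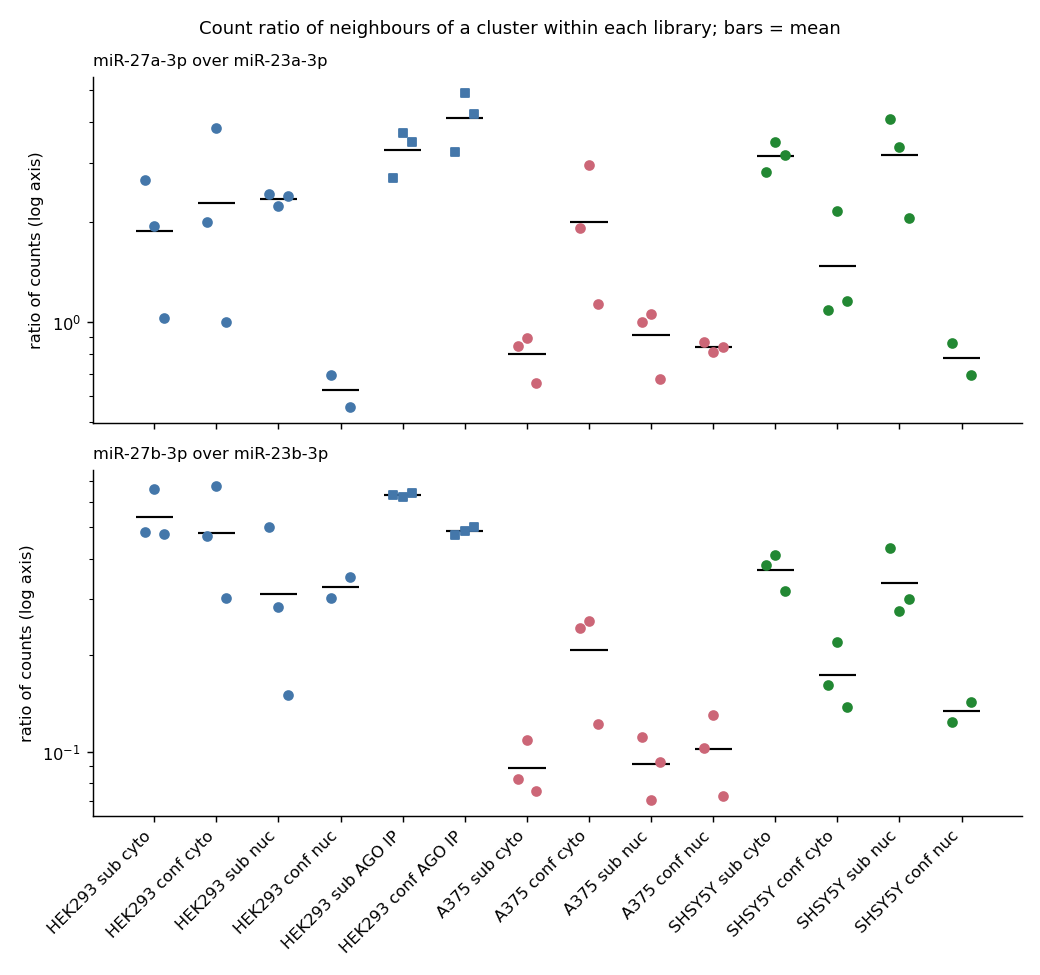
Ratio of counts of the miR-27 to the miR-23 of the same cluster in each library (log axis), 1 dot per fraction library, squares for AGO IP libraries and a bar for the mean. Under the deposited names, confluent SHSY5Y libraries lie below subconfluent ones in both fractions and for both clusters, and confluent A375 cytoplasmic libraries lie above subconfluent ones.

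The levels in A375 cytoplasm show the same. miR-27a-3p was at 19260, 27900 and 14350 CPM in subconfluent and at 35220, 56480 and 32870 in confluent libraries, a log2 difference of 0.90 ± 0.32 (edgeR, adjusted p = 0.03784), and miR-27b-3p at 3171, 4559 and 2392 against 6700, 8751 and 5710 CPM, a difference of 0.95 ± 0.36 (adjusted p = 0.0453). Neither pair of groups overlapped. These 2 calls stand beside 28.3% of 265 entries called (14.3% higher). miR-23a-3p, miR-23b-3p and miR-24-3p gave -0.28, -0.15 and -0.15 and did not pass. The call of miR-27a-3p ended under DESeq2 (adjusted p = 0.05923), and without subconfluent replicate 1, subconfluent replicate 3 or confluent replicate 2 (0.83, 0.68 and 0.65, adjusted p = 0.1315, 0.2272 and 0.2075), and that of miR-27b-3p without any library of these groups but subconfluent replicate 2. Neither call held under the other naming of the columns (0.94 and 1.00, adjusted p = 0.05203 and 0.05675).

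In A375 nuclei no member passed, with log2 differences of -0.39 to -0.09 and 24.9% of entries called. At an unadjusted p under 0.05 the count was also 0, and DESeq2 called none. Without confluent nucleus replicate 3, which had the highest level of all 5 members in its group, miR-23b-3p was called lower in confluent cells (-0.98, adjusted p = 0.02034). miR-23b-3p was at 45850, 51750 and 40870 CPM in subconfluent and at 20610, 28560 and 52320 in confluent nuclei, so that this library lay above the subconfluent ones and the other 2 below them.

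In the HEK293 fractions 1 member passed the test of density, miR-27a-3p in the nucleus, on few counts. In the cytoplasm no member passed, where 28.4% of 345 entries did, and 0 of 5 had an unadjusted p under 0.05. The nearest was miR-27a-3p (unadjusted p = 0.05044), at 782, 714 and 655 CPM in subconfluent and 1005, 2280 and 663 in confluent libraries, with overlap and a log2 difference of 0.80 ± 0.38 (edgeR, adjusted p = 0.1487). DESeq2 called no member, and leaving out confluent cytoplasm replicate 1 or replicate 3 gave a call (1.18 and 1.21, adjusted p = 0.04316 and 0.02678). In the nucleus miR-27a-3p was the 1 member called, with 1.16% of entries called in all. It had 17, 38 and 79 counts in subconfluent libraries (1426, 2339 and 3687 CPM) and 9 and 5 in confluent ones (573 and 385 CPM), a log2 difference of -2.39 ± 0.54 (adjusted p = 0.0299). The call ended without subconfluent nucleus replicate 3 or either confluent library (-2.09, -2.52 and -2.29, adjusted p = 0.09734 to 0.3308) and over the entries detected in the IP (-2.38, adjusted p = 0.05837). The sum of both miR-27 strands gave -0.89 (adjusted p = 0.1962), and under the other naming 3 members were called lower, miR-23a-3p at -1.37 and miR-23b-3p at -1.09 among them.

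The confluency difference of some members was itself different between lines. In the cytoplasm it differed over the 3 lines for miR-27a-3p (F = 20.3, adjusted p = 8.655e-06), miR-27b-3p (F = 16.0, adjusted p = 6.65e-05) and miR-24-3p (F = 8.26, adjusted p = 0.004204) in edgeR's test, beside 37.9% of 478 entries. miR-24-3p lost that call under DESeq2 (adjusted p = 0.1624), over the entries detected in the IP (F = 1.31, adjusted p = 0.45) and without SHSY5Y confluent cytoplasm replicate 2 (F = 3.87, adjusted p = 0.07751). Neither miR-23 passed, with F = 2.33 for miR-23a-3p and 0.91 for miR-23b-3p. In the nucleus 1 member passed, beside 8.16% of entries, and it was miR-27a-3p (F = 8.50, adjusted p = 0.01877), which lost the call without HEK293 confluent nucleus replicate 2 or A375 confluent nucleus replicate 3 (F = 6.97 and 5.20, adjusted p = 0.05169 and 0.07368). With the shared adapter as a block miR-27b-3p passed there as well (F = 7.86, adjusted p = 0.01014). The nuclear and cytoplasmic confluency differences differed for miR-27a-3p in HEK293 (-3.19 ± 0.67 on the log2 scale, adjusted p = 0.01243, beside 4.06% of entries, 1.74% lower). That call ended without subconfluent cytoplasm replicate 2 or replicate 3 (adjusted p = 0.05599 and 0.06532). Without confluent nucleus replicate 1 or replicate 2, which leaves 1 library in that group, the value was -3.32 and -3.09. The sum of both miR-27 strands did not pass (-1.17, adjusted p = 0.1328). No member gave a call for this difference between fractions in A375 or SHSY5Y, where 14.7% and 1.44% of entries did. In A375 miR-27a-3p and miR-27b-3p had an unadjusted p under 0.05, DESeq2 called miR-27b-3p (-1.27, adjusted p = 0.04389), and without A375 confluent nucleus replicate 3 both were called (-1.71 and -1.58), as was miR-27b-3p without subconfluent cytoplasm replicate 2 (-1.49). In SHSY5Y no member had an unadjusted p under 0.05 and DESeq2 called none, while library totals gave a call for miR-23a-3p (1.29, adjusted p = 0.04323).

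On AGO proteins in HEK293 miR-24-3p was higher and miR-23a-3p and miR-27b-3p were lower in the confluent than in the subconfluent pool. miR-24-3p was at 1626, 1610 and 1642 CPM in the subconfluent and 2184, 2363 and 2379 in the confluent IP, miR-23a-3p at 913, 756 and 778 against 661, 542 and 594, and miR-27b-3p at 4321, 4181 and 4209 against 3701, 3450 and 3535. None of these 3 overlapped between the groups. The log2 difference was 0.51 ± 0.08 for miR-24-3p (edgeR, adjusted p = 0.001277), -0.45 ± 0.11 for miR-23a-3p (adjusted p = 0.01478) and -0.25 ± 0.08 for miR-27b-3p (adjusted p = 0.03399), 3 calls beside 35.2% of 537 entries (18.4% higher and 16.8% lower). miR-23b-3p (0.12 ± 0.08) and miR-27a-3p (-0.13 ± 0.10) did not pass. With the replicate number as a block, which pairs these libraries, all 5 members passed, miR-23b-3p at 0.12 (adjusted p = 0.01483) and miR-27a-3p at -0.13 (adjusted p = 0.02551). The call of miR-27b-3p ended without any IP library but confluent replicate 1 (adjusted p = 0.07214 to 0.1173), and that of miR-23a-3p without confluent replicate 2 (-0.38, adjusted p = 0.06307). The call of miR-27b-3p also ended with library totals, with no filter and as a sum with miR-27a-3p (adjusted p = 0.1695, 0.1517 and 0.07657). Summed with its near-identical copy miR-23b-3p, miR-23a-3p gave 0.07 (adjusted p = 0.5439).

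Members differed in how their AGO-bound level compared with the HEK293 fractions, each scaled together in 1 fit. Against the cytoplasm all 5 were higher in the IP, beside 73.5% of 694 entries called (38.5% higher). The log2 difference was 1.80 ± 0.20 for miR-27a-3p, 1.2 ± 0.16 for miR-27b-3p, 1.08 ± 0.15 for miR-23b-3p, 0.85 ± 0.20 for miR-23a-3p and 0.60 ± 0.15 for miR-24-3p (edgeR, adjusted p from 2.379e-09 to 0.0006078), where the median over all entries was 0.37. Scaling moved that median to -0.43 with DESeq2 and -0.23 with library totals, and there miR-27a-3p, miR-27b-3p and miR-23b-3p kept their calls, miR-23a-3p did not pass (0.13 and 0.25) and miR-24-3p turned to -0.14 and -0.01. Under the other naming miR-23a-3p did not pass either (0.51, adjusted p = 0.06595). Counts of entries not detected in the IP made up 36.6% of the subconfluent and 20.3% of the confluent cytoplasmic libraries and 10.9% and 7.16% of the nuclear ones, and their part was not tested. Against the nucleus 4 members were higher, beside 57.6% of entries (28.7% higher), of which miR-27a-3p (1.60 ± 0.27) and miR-27b-3p (1.35 ± 0.19) kept the call under every alternative run. The calls of miR-23b-3p (0.40 ± 0.17, adjusted p = 0.04317) and miR-24-3p (0.43 ± 0.18, adjusted p = 0.0424) each ended under the replicate block (adjusted p = 0.05239 and 0.0586), under DESeq2 and without most single libraries, and turned to -0.09 and -0.08 with library totals. miR-23a-3p gave 0.01 ± 0.24. The median over all entries was 0.61 against the nucleus, so miR-23b-3p, miR-24-3p and miR-23a-3p lay below the typical entry there.

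Between the fractions, SHSY5Y members lay higher in the nucleus. All 5 passed there, beside 71.3% of 348 entries (33.9% higher), with log2 differences of 1.47 ± 0.18 for miR-23a-3p (edgeR, adjusted p = 1.014e-08), 1.16 ± 0.16 for miR-23b-3p, 1.00 ± 0.17 for miR-24-3p, 1.00 ± 0.19 for miR-27a-3p and 0.90 ± 0.20 for miR-27b-3p (adjusted p = 0.0001745). Subconfluent miR-23a-3p was at 9214, 7666 and 5684 CPM in the cytoplasm and 14030, 17640 and 18510 in the nucleus, without overlap. In HEK293 2 members passed, miR-23a-3p (0.96 ± 0.30, adjusted p = 0.01164) and miR-23b-3p (0.80 ± 0.19, adjusted p = 0.001957), beside 53.9% of entries (18.8% higher). Over the entries detected in the IP, neither passed in HEK293 (0.46 and 0.29, adjusted p = 0.3114 and 0.3069), nor without a filter (adjusted p = 0.189 and 0.06015), and 2 of 5 did in SHSY5Y, where miR-27a-3p, miR-27b-3p and miR-24-3p gave 0.21, 0.11 and 0.22. Under the other naming both miR-23 strands lost their calls in both lines (0.01 to 0.13 on the log2 scale). In A375 no member passed, at -0.39 to 0.14, where 21.5% of entries did. None had an unadjusted p under 0.05 and DESeq2 called none.

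**Figure D5:**
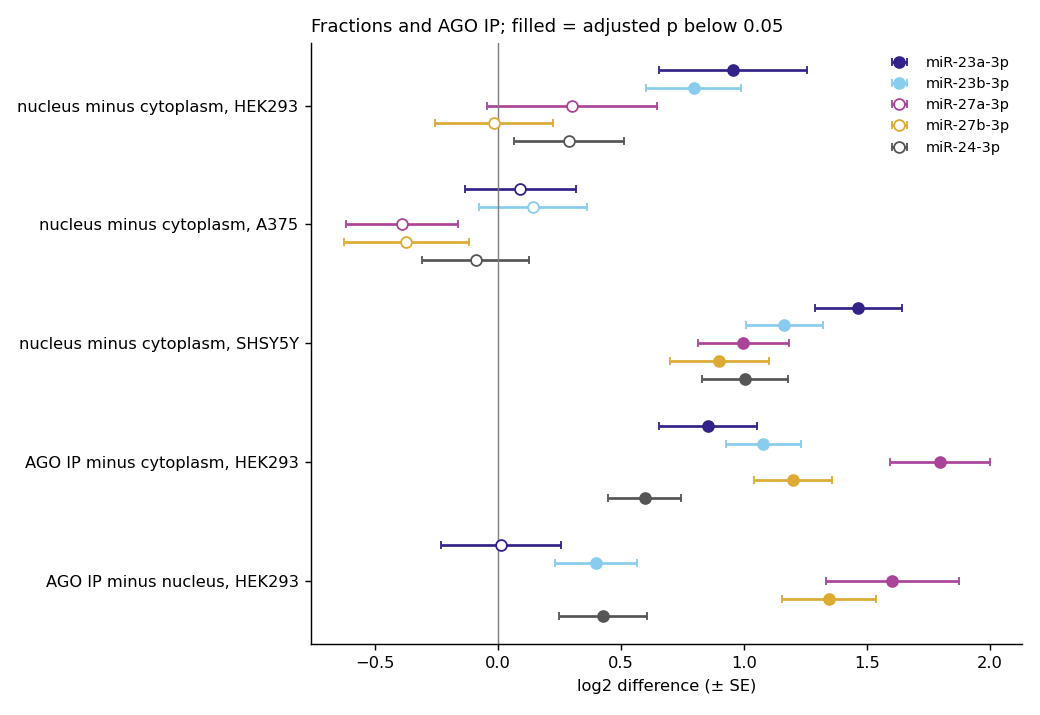
Differences between nucleus and cytoplasm in each line and between the AGO IP and each HEK293 fraction (log2, point ± SE) for the 5 guide strands, with filled points for an adjusted p below 0.05. SHSY5Y points lie at 0.90 to 1.47, A375 points at -0.39 to 0.14, and miR-27a-3p has the largest IP differences, 1.80 and 1.60.

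Across the 12 fraction groups the 5 members moved together to different degrees. Pearson's r of their mean log2 CPM was 0.99 for miR-23a-3p and miR-23b-3p, 0.98 for miR-27a-3p and miR-24-3p, 0.83 for the 2 miR-27 strands and 0.68 for miR-23a-3p and miR-27b-3p, a description over groups that share lines and pools. Of 505 entries with a mean of at least 100 CPM, miR-21-5p, an abundant miRNA of many tumours, came closest to miR-24-3p (0.99) and to miR-23a-3p, miR-23b-3p and miR-27a-3p (0.97 each). let-7i-5p was next for miR-24-3p (0.98) and miR-27a-3p (0.97), and miR-100-5p for miR-23a-3p (0.95). miR-27b-3p had other nearest entries, let-7g-5p and miR-30a-5p (0.93 each).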

How the data were processed

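The authors trimmed adapters with cutadapt 2.4, aligned the reads to human miRNAs (hg38) by Bowtie2 and used bedtools coverage for counting. The versions of both, the annotation release and the treatment of reads with several matches are not given in the sources used here. The deposited table holds raw counts per mature entry, not normalized, for 42 libraries. Fits that include SHSY5Y do not hold miR-886, which has no value in that line. Libraries under 1000 counts were left out.

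Groups follow the labels. An entry was tested where 3 or more libraries of the fit had 10 or more counts, with edgeR 4.0.16 in R 4.3.3 (TMM, quasi-likelihood, Benjamini-Hochberg adjustment over all entries tested, threshold 0.05), in 1 fit per line, 1 for the IP, 1 for HEK293 with the IP and 1 over all fractions. log2 CPM used a prior count of 2. Fraction and IP libraries were scaled separately for CPM. The standard error is the log2 difference over the root of its F. Shares were tested by permutation with scipy 1.17.1. The code was tested on simulated counts. Sequences were matched by name to RefSeq, and hairpins to GENCODE 44.

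Named are the 5 members, 9 related entries, and for each member the 3 entries of highest Pearson correlation over the 12 groups at a mean of at least 100 CPM. The members and lists were chosen with earlier results of these data known. Replicate numbers paired the IP libraries (shared adapter, r = 0.58, 0.34 and 0.39 over 537 entries) and, by group and number, libraries of different lines (shared adapter, r = 0.06 to 0.37), and did not pair fractions or densities of a line. Alternatives were DESeq2 1.42.0, library totals, no filter, pair sums, the replicate block, entries detected in the IP only, near-empty libraries kept, the other column naming, and each library left out.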

Additional observations from a re-analysis of the deposited data

Results flagged for a closer look

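These results stand out because an effect of density differed between groups. In HEK293 the confluency difference of miR-27a-3p lay further down in nuclei than in cytoplasm (-3.19 ± 0.67 on the log2 scale, edgeR adjusted p = 0.01243), with 14 counts in all in the 2 confluent nuclear libraries. This call ended without any of 4 single libraries (adjusted p = 0.05599 to 0.09631), and the sum of both miR-27 strands gave -1.17 (adjusted p = 0.1328). Over the 3 lines the cytoplasmic confluency difference varied for miR-27a-3p (F = 20.3), miR-27b-3p (F = 16.0) and miR-24-3p (F = 8.26), which were lower in confluent SHSY5Y, while the miR-27 strands were higher in confluent A375. In the nucleus it varied for miR-27a-3p (F = 8.5). Each line was 1 pool, and SHSY5Y was grown in another medium than the other lines. Line, pool and medium therefore cannot be told apart in these 4 tests.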

How the results depend on the processing

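The number of members called changed by over 1.5 times as follows, and by 1 member in some other comparisons. With DESeq2 it was 1 in A375 cytoplasm (2 as reported) and 1 for density by fraction in A375 (0), and 3 and 2 for the IP against cytoplasm and nucleus (5 and 4), where miR-24-3p turned to -0.14 against cytoplasm. With library totals it was 3 and 2 for these IP comparisons, with miR-24-3p at -0.013 against cytoplasm and miR-23b-3p and miR-24-3p at -0.0863 and -0.0815 against nucleus, and 1 for density by fraction in SHSY5Y (0). With no filter it was 0 for HEK293 nucleus against cytoplasm (2) and 1 for A375 against SHSY5Y nucleus (2). Pair sums turned miR-23a-3p in the IP to 0.073. Over entries detected in the IP it was 0 in HEK293 nucleus (1), 0 and 2 between the fractions of HEK293 and SHSY5Y (2 and 5), and 3 and 2 for the IP comparisons, with miR-24-3p at -0.095 against cytoplasm and miR-23b-3p at 0.70 and 0.63 for density in SHSY5Y cytoplasm and nucleus. With near-empty libraries kept it was 1 in HEK293 cytoplasm (0) and 2 for the IP against nucleus.

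Under the other column naming it was 3 in HEK293 nucleus, 0 in A375 cytoplasm, 5 and 5 in SHSY5Y cytoplasm and nucleus (3 and 3), where nuclear miR-23a-3p turned to -1.18, 0 and 3 between the fractions of HEK293 and SHSY5Y, 5 for A375 against SHSY5Y nucleus and 0 for density between lines in the nucleus (1). With the replicate block it was 5 in the IP (3), 2 for the IP against nucleus, 2 for density between lines in the nucleus, and 1 in A375 cytoplasm, where the numbers pair no libraries.

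With each library left out, the count ran from 0 to 1 in HEK293 cytoplasm, HEK293 nucleus, A375 nucleus and density by fraction in HEK293, from 0 to 2 in A375 cytoplasm, density by fraction in A375 and density between lines in the nucleus, from 1 to 2 for A375 against SHSY5Y nucleus, from 1 to 3 in the IP, from 2 to 3 in SHSY5Y nucleus, density between lines in the cytoplasm and the IP against nucleus, and from 3 to 4 in SHSY5Y cytoplasm. All share comparisons kept their call, and their direction too but for the miR-23b-3p share between A375 nucleus and cytoplasm, which ran from -0.737 to 1.47 points. With 5 to 79 counts of miR-27a-3p in the HEK293 nuclear libraries, counting error limits the precision there.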
